A study of Homo sapiens with 14 samples.

Results

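Circular RNAs (circRNAs) made from the genes of 57 protein kinases were followed through 6 preparations of HepG2 cells, a human hepatocellular carcinoma line. A circRNA was counted as a kinase circRNA when its start and its end both lay inside the RefSeq span of one of these genes. By this rule 227 of the 11227 circRNAs listed in the deposited tables were kinase circRNAs, and 53 of the 57 genes had at least 1. EGFR, MAP3K5, MAP4K5 and MAPK14 had none. The groups were nucleus, cytoplasm, ribosome fraction, cytosol, exosomes and whole cells, with 2 libraries each. All came from the same cell line with no treatment or genotype named in the labels. The labels also name a mitochondrial fraction, which was not analysed here. Ribosomal RNA was depleted in every preparation except the exosomal one, per the labels' protocols, so exosomes and cells also differ in library preparation. Nothing in the labels says that the 2 libraries of a fraction are separate cultures, so p-values measure only the spread between these libraries, which may be technical.

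A circRNA forms when the spliceosome joins the end of an exon to the start of the same or an earlier exon. The product is a closed ring without free ends and is detected by reads that cross this back-splice junction. Most rings of exons are known to be exported to the cytoplasm, where their lack of ends protects them from exonucleases. Protein kinases transfer phosphate to other proteins, and many of their genes are long and have many exons. A circRNA from a kinase gene does not by itself show that the kinase protein was present or active.

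Each circRNA was described by its junction reads, averaged over the 2 circRNA callers that the authors used wherever both had an entry. It was also described by RPTM, the reads per 10000000 library reads. A circRNA entered a table only when a caller saw it in both libraries of that fraction, so "not listed" is not a measured 0. The 12 libraries held 2301 to 72415 circRNA junction reads, lowest in exosomes (2304 and 2301) and the nucleus (7727 and 7235). The library totals implied by the authors' RPTM values were 65621592 to 104135791 reads. Of 10 genes typical of liver cells that were checked as hosts, 5 had circRNAs, among them ALB, APOB and APOH.

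Many kinase circRNAs shared a splice site. A start or an end was shared with another kinase circRNA in 155 of 227 cases (68.3%), and with another listed circRNA in 59.6% of all 11227. The most used site was the start at position 37420299 of chromosome 21 in DYRK1A, the gene of a dual-specificity kinase, where 6 circRNAs of 1568 to 75960 bases of genomic span began. Of these only the circRNA of 52582 bases was entered by both callers, and the others came from a single caller. In MAPK9, the gene of the stress-activated kinase JNK2, 2 circRNAs shared the end at position 180280608 of chromosome 5, which is the acceptor because the gene lies on the minus strand. These acceptors are shown because they lie in stretches held by the RefSeq promoter table (GRCh38.p14), which had entries for 50 of the 57 genes. Lower case marks the 100 bases before the circularised exon, ending in the AG of the acceptor, and capitals mark its first 10 bases.
DYRK1A, chr21:37420199-37420308, plus strand: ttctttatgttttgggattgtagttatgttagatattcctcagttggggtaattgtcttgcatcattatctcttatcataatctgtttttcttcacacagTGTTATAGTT
MAPK9, chr5:180280599-180280708, minus strand: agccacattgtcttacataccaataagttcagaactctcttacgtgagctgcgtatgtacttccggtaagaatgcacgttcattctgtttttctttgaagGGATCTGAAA
Both sites carry a run rich in pyrimidines before the AG, and both coincide with a start that the promoter table gives for its gene. Neither is the outer start of the RefSeq gene span, since the acceptors lie at 34.0% of the length of DYRK1A and 19.5% of that of MAPK9. Over all circRNAs listed by both callers, 25 acceptors fell inside stretches of this table and 25 of them were preceded by AG. With single-caller entries included it was 47 of 48. How the callers choose junctions is not given in the sources used here, so these counts are no test of the sites.

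In CSNK1G3, a gene for casein kinase 1 gamma, 5 circRNAs of 425 to 45998 bases shared the start at position 123545417 of chromosome 5. In PTK2, the gene of focal adhesion kinase, 5 circRNAs of 11299 to 72493 bases shared the end at position 140890769 of chromosome 8. STK39, which encodes the kinase SPAK that regulates cation-chloride cotransporters, had 4 circRNAs that shared the end at position 168182090 of chromosome 2. The median genomic span of kinase circRNAs was 9394 bases, against 6525 bases over all circRNAs. The acceptor lay at a median of 45.4% of the host gene's length in the 174 kinase circRNAs of 46 genes for which the strand was known, against 44.1% over all. The number of circRNAs per gene was unevenly spread. PTK2 had 19, STK39 and ATM had 16 each, ROCK2 had 13 and PRKDC had 10, so that 5 genes held 74 of the 227. The median was 3 and 13 genes had a single circRNA. Across the 57 genes the count was weakly related to gene length (Spearman rho 0.135, Pearson r 0.110, a description across genes that share the same libraries). ATM encodes the kinase that senses DNA double-strand breaks, and 5 of its circRNAs also lie within C11orf65, so their host cannot be told apart.

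Most kinase circRNAs were found in few preparations. A single table held 107 of the 227 (47.1%, against 52.6% of all circRNAs), and 3 were in all 6 tables: those of CSNK1G3 (12148 bases), VRK1 (27269 bases) and IGF1R (546 bases). The nucleus listed 29, the cytoplasm 159, the ribosome fraction 65, the cytosol 113, exosomes 12 and cells 96. These were 1.80% to 2.71% of all circRNAs listed there, lowest in cells and highest in exosomes. Summed over the kinase circRNAs, the level was 12.4 ± 1.46 RPTM in the nucleus and 129 ± 7.01 RPTM in the cytoplasm (SD, n = 2 each). It was 38.4 ± 1.19 RPTM in the ribosome fraction, against 135 ± 21.9 RPTM in the cytosol. Exosomes had 4.83 ± 3.30 RPTM and cells 87.3 ± 8.76 RPTM. As a share of all circRNA reads, kinase circRNAs made up 2.35% and 2.10% in the cytosol libraries, and 1.28% and 1.47% in the nuclear ones. The exosome libraries gave 2.04% and 1.09%, a spread wider than the distance between most fractions.

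**Figure D1:**
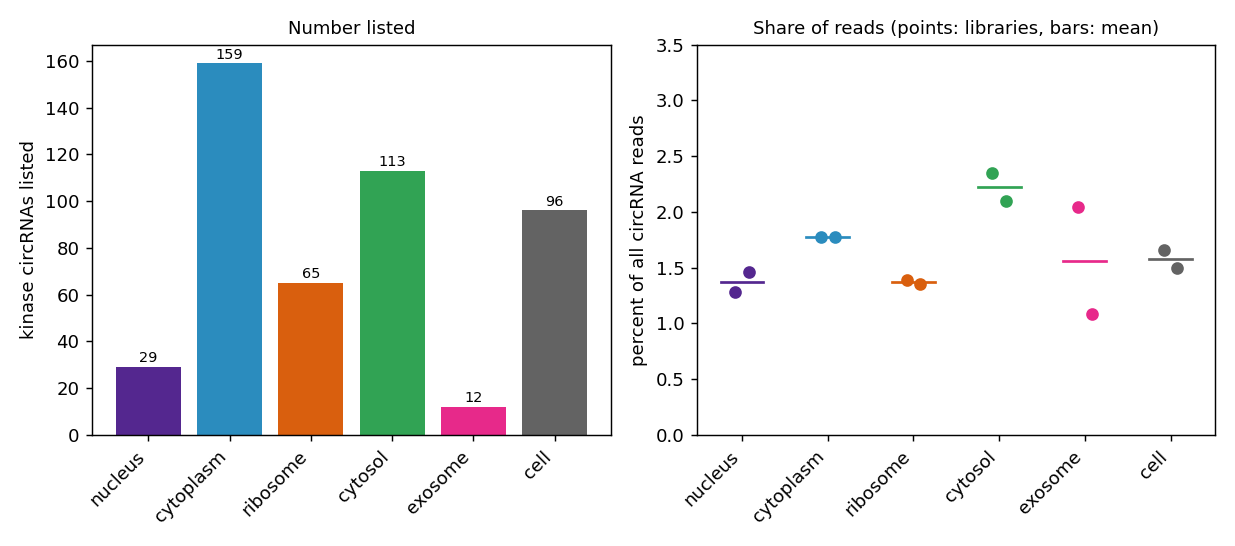
Number of kinase circRNAs listed in each fraction (left, bars) and their percent of all circRNA reads (right, points for the 2 libraries, short lines for the mean). The cytoplasm lists most (159), and the cytosol libraries have the highest mean share (2.35% and 2.10%).

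By family, the STE20 kinases, which include STK39 and the Hippo kinase STK3, had most circRNAs (45 of 9 genes). Protein kinases C and D with the ROCK kinases had 36, the PI3K-related kinases 30, and the tyrosine kinases 26. The casein kinase 1 family had 12 circRNAs. Its level in the cytosol, 31.6 ± 7.25 RPTM, was that of CSNK1G3 alone, since CSNK1A1 and CSNK1G1 were not listed there. The STE20 family had 23.3 ± 5.53 RPTM in the cytosol, of which STK39 gave 14.5 ± 5.21 RPTM. The PI3K-related family, made of the DNA damage kinases ATM, ATR and PRKDC and the growth regulator MTOR, had 24 circRNAs with 7.75 ± 0.426 RPTM in the cytoplasm. In the cytosol the same family had 6 circRNAs with 1.33 ± 0.662 RPTM, and none of its 30 circRNAs passed the count filter, so this difference was not tested.

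CSNK1G3 gave the most abundant kinase circRNA. It runs from 123545417 to 123557564 on chromosome 5, and it had 5 and 5 reads in the nuclear libraries and 85 and 75 in the cytoplasmic ones. It had 21 and 12 reads in the ribosome fraction, against 281 and 230 in the cytosol. The exosomes had 14 and 4 reads and the cells 61 and 38. Among the circRNAs of CSNK1G3 it made up 80.3% to 85.2% of the reads in the libraries of cytoplasm, cytosol and cells, and it was the sole CSNK1G3 circRNA listed in the nucleus. The second was VRK1 (chromosome 14, 96833467 to 96860735), from the gene of a nuclear kinase of chromatin proteins. VRK1 had 6 and 9 reads in the nucleus, 82 and 75 in the cytoplasm, 12 and 15 in the ribosome fraction, with 54 and 25 in the cytosol, 10 and 3 in exosomes, and 60 and 50 in cells. These 2 circRNAs ranked first or second in the cytoplasm, exosomes and cells, and VRK1 ranked 5 in the cytosol. In the nucleus the first rank went to an STK39 circRNA (1.69 ± 0.118 RPTM), and in the ribosome fraction to that of IGF1R, the receptor of insulin-like growth factor 1 (2.87 ± 0.467 RPTM).

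**Figure D2:**
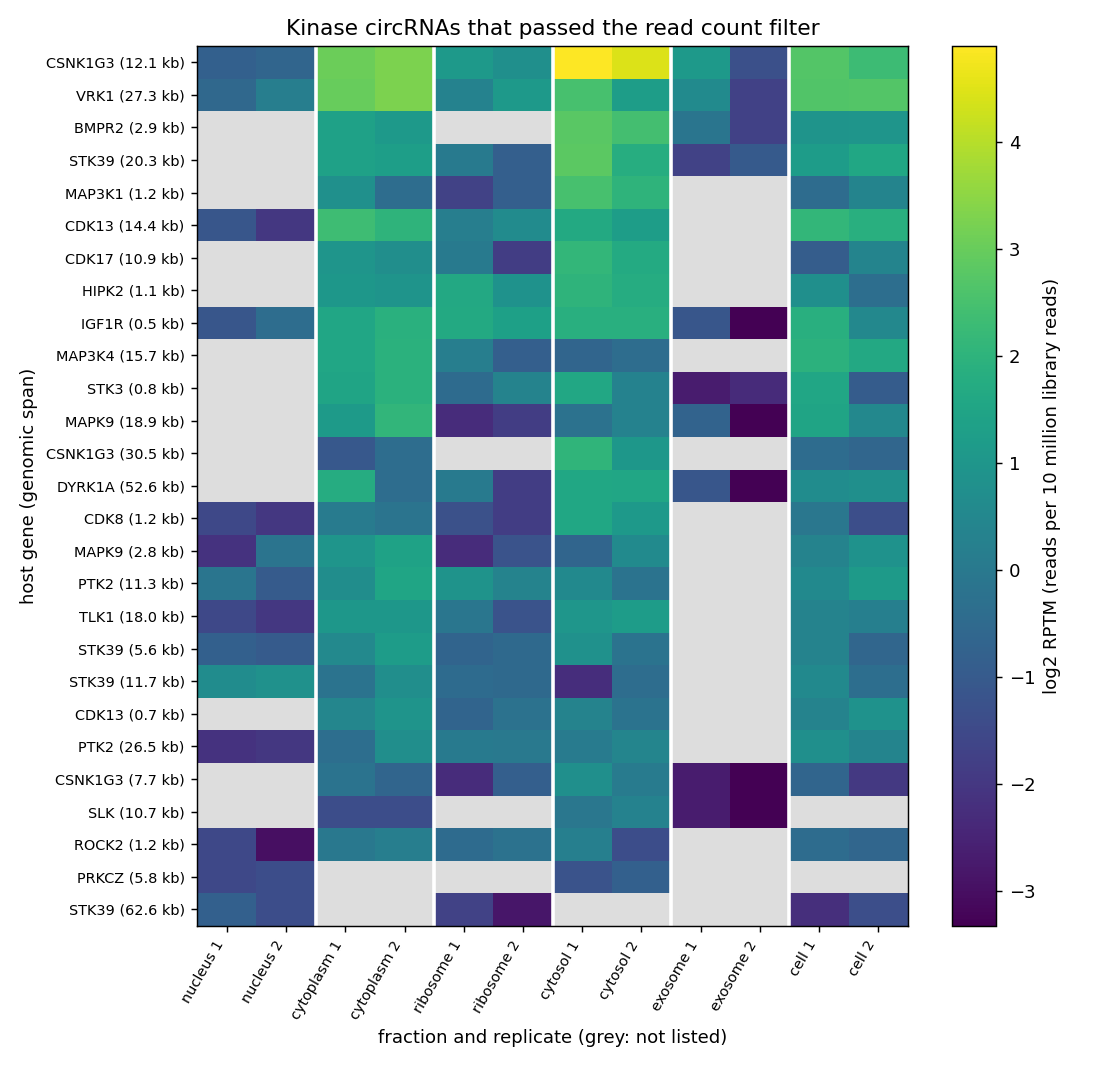
Level of the 27 tested kinase circRNAs in the 12 libraries, as log2 of RPTM, labelled by host gene and genomic span, ordered by their highest mean. Grey cells are not listed. CSNK1G3 (12.1 kb) in the cytosol is the brightest row, and most rows are grey in exosomes.

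**Figure D3:**
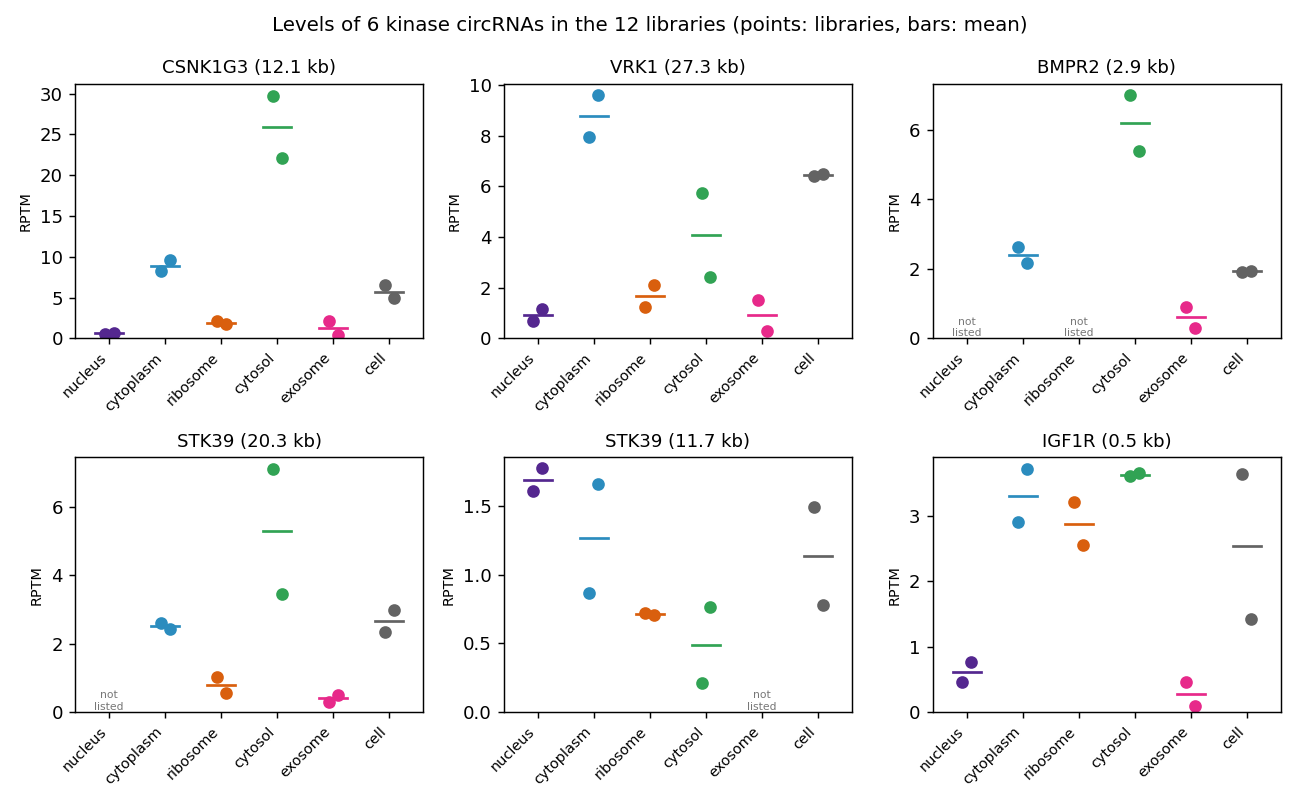
RPTM of 6 kinase circRNAs in each library, with points for the 2 libraries and short lines for the mean. The circRNAs of CSNK1G3, BMPR2 and STK39 (20.3 kb) are highest in the cytosol, STK39 (11.7 kb) has its highest mean in the nucleus, and VRK1 in the cytoplasm.

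The tests below compare fractions by their junction reads, with the scale set by all tested circRNAs of a library (edgeR's quasi-likelihood test with TMM factors and Benjamini-Hochberg adjustment, adjusted p below 0.05). A fold change is thus a change relative to the other circRNAs of the fraction. Of the 227 kinase circRNAs, 95 were listed by both callers in the same table, and 27 of these passed the filter on low counts. Circular RNAs that pass because 1 fraction is high had to differ, so counts over the 27 say nothing about the rest. Fold changes are given where both fractions list the circRNA. A call against a fraction where it is not listed depends on that fraction's reads being taken as 0. A call is termed stable when it held in 4 fits, namely with unlisted circRNAs at 0 and at 1 read, each on the TMM scale and on a scale of total circRNA reads. Stable says nothing of the other alternatives tried. Fewer junction reads cannot be told apart from less RNA of that fraction in the preparation.

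The first question was how kinase circRNAs were divided between nucleus and cytoplasm. The nucleus listed 29 of them and the cytoplasm 159. Among those listed in both fractions, 1 circRNA of STK39 was higher in the nucleus relative to the other circRNAs and 1 of CSNK1G3 was lower. In all, 14 of the 27 tested kinase circRNAs were called, 3 higher and 11 lower in the nucleus, while 48.2% of all 950 tested circRNAs were called, 14.9% higher and 33.3% lower. By the rule of 4 fits the 3 higher calls were stable and the 11 lower calls were not. Over all circRNAs 14.4% had a stable call, 13.4% higher and 1.05% lower. Of the 3 higher calls, 2 were fixed by the filter as described below. The third appears to have passed the filter through its nuclear reads and was not shown to be free of it. Of the 12 kinase circRNAs listed in both fractions 2 were called, 1 higher and 1 lower, against 31.2% of all circRNAs listed in both, 23.9% higher and 7.39% lower. The median log2 fold change of these 12 was 0.29 beside 0.37 over all listed in both, and -2.14 beside -2.09 on the scale of the implied library totals.

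STK39 (chromosome 2, 168063500 to 168075231, 11732 bases) had 14 and 14 reads in the nucleus, against 9 and 13 reads in the cytoplasm. The levels were 1.69 ± 0.118 RPTM in the nucleus and 1.27 ± 0.559 RPTM in the cytoplasm (SD, n = 2 each), and the cytoplasmic library with 13 reads overlapped the nuclear range. Relative to the other circRNAs it was higher in the nucleus, by 2.94 ± 0.49 on the log2 scale (SE; edgeR adjusted p = 2.055e-05). Its nuclear reads also counted toward passing the filter, and whether it would have passed without them was not tested. On the scale of the implied library totals the log2 fold change was 0.46 and did not pass (adjusted p = 0.393), since on that scale the median of circRNAs listed in both fractions was -2.09, against 0.37 on the main scale. The second STK39 circRNA (168012634 to 168075231) shared its end with the first and had 5 and 3 reads in the nucleus and no cytoplasmic entry. It reached the tested set through its reads in the nuclear libraries, the smallest after exosomes, so its higher call was fixed by the filter and supports nothing. PRKCZ (chromosome 1, 2169518 to 2175313), whose gene encodes the atypical protein kinase C zeta of cell polarity, had 3 reads in each nuclear library (0.345 and 0.381 RPTM), 4 and 6 reads in the cytosol (0.424 and 0.576 RPTM) and no entry in the cytoplasm. Its higher call was likewise fixed by the filter. Of the 6 circRNAs of PRKCZ, 4 were listed in the nucleus and 2 in the cytoplasm. Only 1 of the 6 was entered by both callers in the same table, and the gene had 41 reads in all.

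In the other direction, the circRNA of CSNK1G3 (123545417 to 123557564) had 0.605 ± 0.0421 RPTM in the nucleus and 8.91 ± 0.963 RPTM in the cytoplasm, and the libraries of the fractions did not overlap. Its edgeR log2 fold change was -1.37 ± 0.45 (adjusted p = 0.01406). This call was lost with RLE factors (adjusted p = 0.0708), on a scale of total circRNA reads (0.148) and with DESeq2 (0.170). VRK1 had -0.76 ± 0.44 (adjusted p = 0.1449) and the longer CDK13 circRNA -1.17 ± 0.56 (adjusted p = 0.08134), and neither passed. CDK13 encodes a kinase of the elongating RNA polymerase II. The other 10 lower calls were of circRNAs not listed in the nucleus, from BMPR2, CDK13, CDK17, DYRK1A, HIPK2, MAP3K1, MAP3K4, MAPK9, STK3 and STK39. BMPR2, the type II receptor of bone morphogenetic proteins, had 27 and 17 cytoplasmic reads, and MAP3K4, an activator of the stress kinase cascade, had 30 and 30. None of these 10 was stable. MAP3K4 passed with 1 read entered in each nuclear library (adjusted p = 0.04125), and was lost when total circRNA reads were also the scale. Fewer kinase circRNAs were called in this comparison when the first nuclear library was left out. Ranges with 1 library left out, for kinase circRNAs and for all, are given with the alternatives below. The 10 circRNAs listed in both fractions and not called had log2 fold changes from -1.17 (CDK13) to 0.90 (PTK2).

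The second question was how kinase circRNAs were divided between the ribosome fraction and the cytosol. Among those listed in both fractions, 1 circRNA each of CSNK1G3 (12148 bases), MAP3K1, CDK8, STK39 (20304 bases) and CDK17 was lower in the ribosome fraction, and 1 of PTK2 was higher, a call that held in 9 of 18 alternatives. Of the other tested CSNK1G3 circRNAs, that of 30547 bases, not listed in the ribosome fraction, was also called lower. That of 7731 bases leaned the same way without a call. Other STK39 circRNAs did not follow, as given below. The calls of MAP3K1 and CDK8 are limited by the filter, as also given below. In all, 11 of 27 were called, 2 higher and 9 lower, against 52.7% of all tested circRNAs called, 26.6% higher and 26.1% lower. Of these, 9 were stable (1 higher, 8 lower), and 39.5% of all circRNAs had a stable call, 22.7% higher and 16.7% lower. Of the 22 kinase circRNAs listed in both fractions 6 were called, 1 higher and 5 lower, against 44.1% of all listed in both, 23.9% higher and 20.3% lower. The median log2 fold change of those 22 was -0.29, beside 0.17 over all 725 circRNAs listed in both. On the scale of the implied library totals the medians were -1.21 and -0.71, and on total circRNA reads -0.10 and 0.38.

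The CSNK1G3 circRNA (123545417 to 123557564) had 1.93 ± 0.335 RPTM in the ribosome fraction, against 25.9 ± 5.43 RPTM in the cytosol. The edgeR log2 fold change was -2.82 ± 0.31 (adjusted p = 2.024e-08). The CSNK1G3 circRNA of 30547 bases, which shares its start, had 39 and 21 reads in the cytosol and was not listed in the ribosome fraction, and was called lower with stable calls. Outside the cytosol it had 5 and 6 reads in the cytoplasm and 7 and 5 in cells. It thus appears to have passed the filter through the cytosol, so its lower call is not independent of it. Whether it would have passed without these reads was not tested. The third tested circRNA of the gene, of 7731 bases, had 2 and 4 reads in the ribosome fraction, against 16 and 11 in the cytosol. It had -0.99 ± 0.61 and did not pass (adjusted p = 0.1699). In reads, all 3 were lower in both ribosome libraries than in both cytosol libraries, or not listed there. The ribosome libraries held 27431 and 19649 circRNA reads in all, against 60701 and 59472 in the cytosol, so fewer reads alone are not particular to this gene.

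MAP3K1 (chromosome 5, 56864734 to 56865977), from a gene at the head of the JNK cascade, had 3 and 4 ribosome-fraction reads, against 54 and 42 in cytosol. Its log2 fold change was -2.60 ± 0.53 (edgeR adjusted p = 0.0001595). CDK8 (chromosome 13, 26400453 to 26401624), whose product is a kinase of the Mediator complex, had 4 and 2 ribosome-fraction reads, against 28 and 22 in cytosol, with -1.89 ± 0.54. CDK17 (chromosome 12, 96323948 to 96334865) had 10 and 2 ribosome-fraction reads, against 41 and 34 in cytosol, with -1.52 ± 0.49. The CDK8 and CDK17 calls were lost with DESeq2 (adjusted p = 0.0834 and 0.105). For MAP3K1, CDK8 and CDK17 most reads came from the cytosol. MAP3K1 had 18 and 6 reads in the cytoplasm and 7 and 10 in cells, and CDK8 had 11 and 7 and 9 and 3 there. These circRNAs of MAP3K1 and CDK8 thus appear to have passed the filter through the cytosol, so their lower calls are not independent of it. CDK17 had 20 and 13 reads in the cytoplasm. Whether any of them would have passed without the cytosol was not tested. BMPR2 (chromosome 2, 202464809 to 202467689) was not listed in the ribosome fraction, against 66 and 56 reads in the cytosol, and was called lower with stable calls. The remaining calls rested on few reads in the fraction with an entry. SLK (9 and 13 cytosolic reads) and PRKCZ (4 and 6) had no entry in the ribosome fraction and were called lower. The 62598-base STK39 circRNA had 3 and 1 reads in the ribosome fraction and no cytosolic entry, and was called higher.

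Within STK39, the circRNA from 168161787 to 168182090 (20304 bases) had 10 and 4 reads in the ribosome fraction, against 67 and 36 in the cytosol, so that edgeR gave a log2 fold change of -1.73 ± 0.44 (adjusted p = 0.001645). The 11732-base circRNA had 7 and 5 reads in the ribosome fraction, against 2 and 8 in the cytosol, with 1.35 ± 0.66 and no call (adjusted p = 0.08152). Whether the 2 circRNAs differ in this contrast was not tested. As a share of all STK39 circRNA reads, the 20304-base circRNA made up 20.0% and 13.3% in the ribosome fraction, against 39.0% and 31.9% in the cytosol. The 11732-base circRNA made up 43.8% and 51.9% in the nucleus and 7.03% and 11.7% in the cytoplasm. In exosomes the 20304-base circRNA was the sole STK39 circRNA listed, with 2 and 5 reads.

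**Figure D4:**
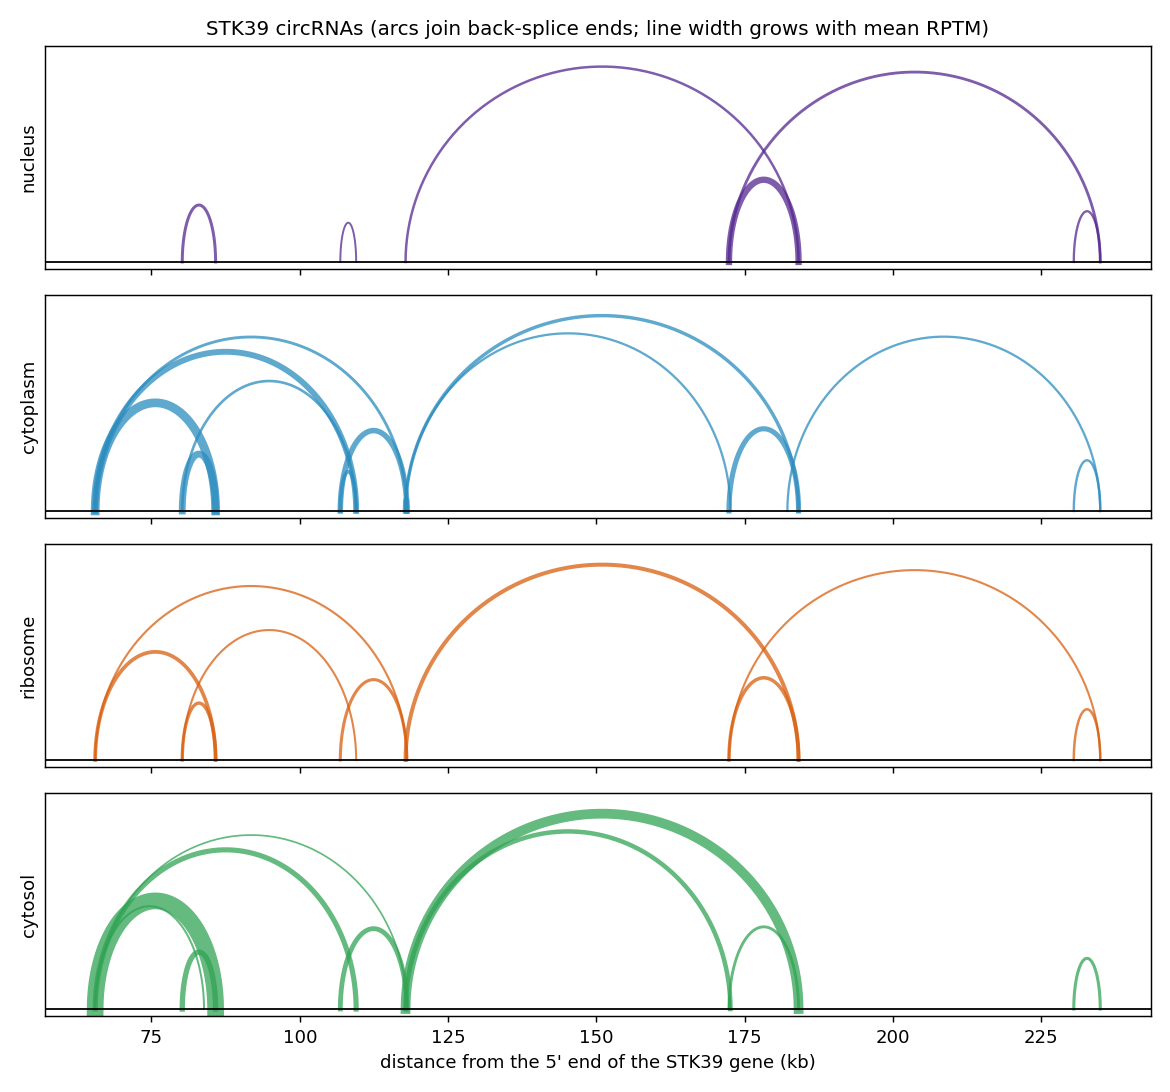
STK39 circRNAs in 4 fractions, drawn as arcs that join the back-splice ends along the gene (x axis in kb from its 5′ end), with line width growing with the mean RPTM of the 2 libraries. The 11.7-kb arc near 172 to 184 kb is the widest in the nucleus, and the 20.3-kb arc near 65 to 86 kb the widest in the cytosol.

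The PTK2 circRNA from 140879471 to 140890769 on chromosome 8 had 18 and 9 reads in the ribosome fraction, against 14 and 9 in the cytosol. Its levels were 1.57 ± 0.416 RPTM in the ribosome fraction, against 1.17 ± 0.438 RPTM in the cytosol, and the libraries overlapped. Relative to the other circRNAs it was higher in the ribosome fraction, with 1.34 ± 0.46 (edgeR adjusted p = 0.01565). The call was lost without the first ribosome library (adjusted p = 0.507), without the second (0.185) and without the second cytosol library (0.199), and it had 0.45 on the scale of the implied totals (0.462). In all it held in 9 of the 18 alternatives that gave a value, although it was stable by the rule of 4 fits. The circRNAs of IGF1R (0.55 ± 0.37, adjusted p = 0.2043) and HIPK2 (0.34 ± 0.37, adjusted p = 0.4727) did not pass. HIPK2 encodes a homeodomain-interacting kinase of the DNA damage response, and it had 30 and 13 reads in the ribosome fraction, against 38 and 35 in the cytosol. MAP3K4 had 11 and 4 reads in the ribosome fraction, against 6 and 8 in the cytosol, with 1.19 ± 0.56 and no call (adjusted p = 0.07314).

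**Figure D5:**
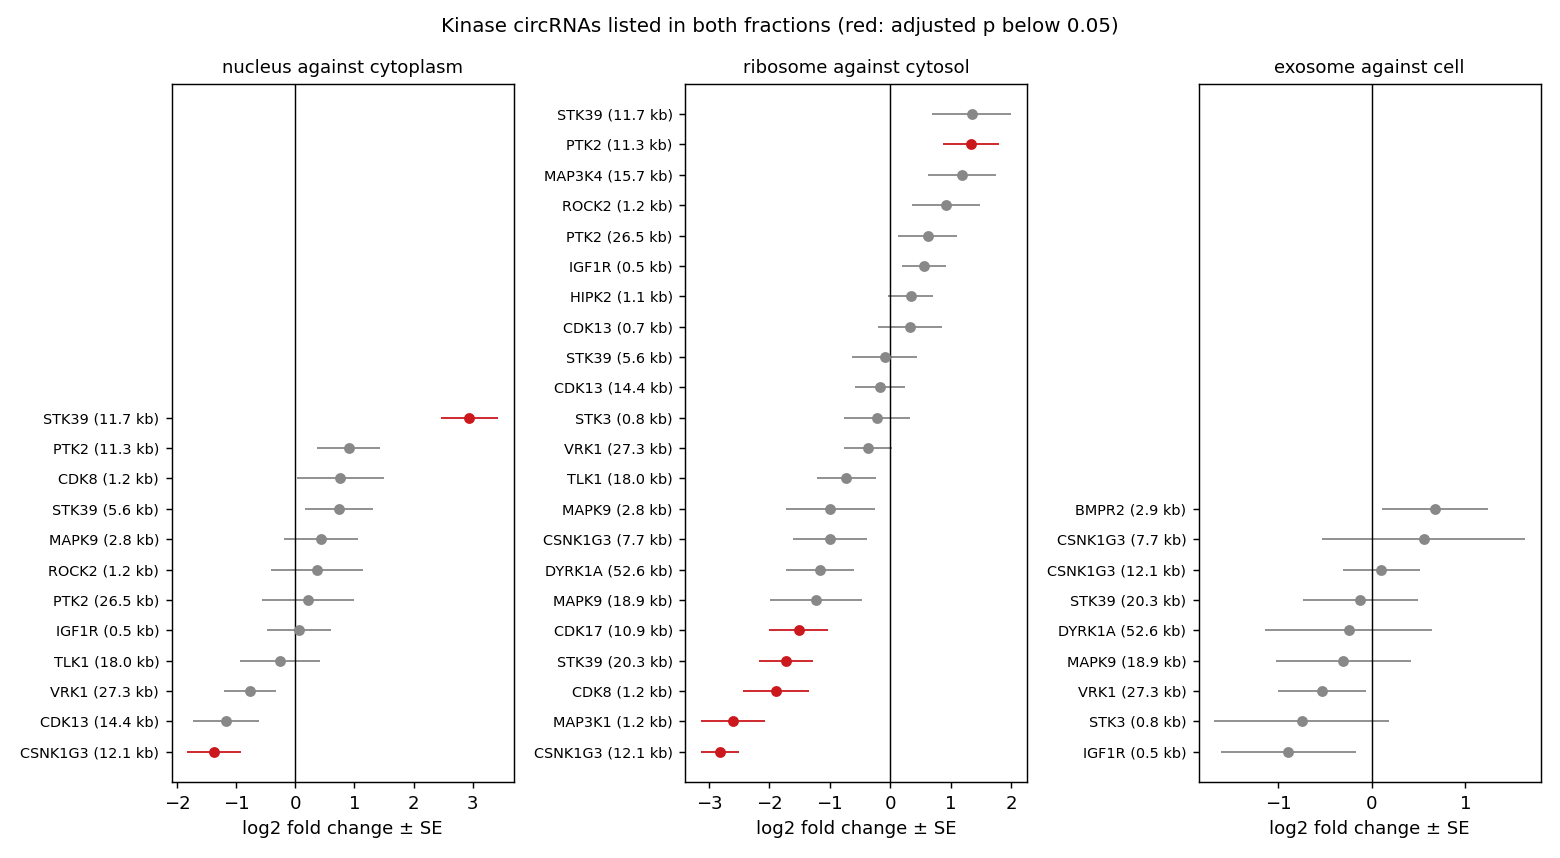
Log2 fold change with its standard error (edgeR, main scale) of kinase circRNAs listed in both fractions of each comparison, 12, 22 and 9 in number. Red points have an adjusted p below 0.05: 2 in the first panel, 6 in the second and none in the third.

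The third question was which kinase circRNAs were found in exosomes, vesicles released by cells. Exosomes listed 12 of the 227, from 11 genes, and 9 of these were also listed in cells and passed the filter. The calls were 1 higher and 9 lower in exosomes of 27 tested, against 46% of all circRNAs called (4% higher and 42% lower). None of the 10 was stable, beside 2.21% of all circRNAs, all of them higher. No lower call was stable among all 950 tested circRNAs, so the lack of stable lower calls says nothing particular of kinase circRNAs. Of the 9 listed in both fractions none was called, against 14.3% of all circRNAs listed in both (5.78% higher, 8.51% lower). Their log2 fold changes ran from -0.89 ± 0.72 (IGF1R) to 0.68 ± 0.57 (BMPR2). Their median was -0.25 on the main scale, 1.54 on total circRNA reads and -2.68 on the implied library totals, so no direction can be given for them. At an unadjusted p under 0.05, 13 of the 27 passed with edgeR, beside 540 of all 950 tested circRNAs. DESeq2 called 1 of the kinase circRNAs, and its count over all is given with the alternatives below.

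The 9 circRNAs called lower were not listed in exosomes. They came from CDK13 and PTK2 (2 each), HIPK2, MAP3K4, MAPK9, STK39 and TLK1. Fewer kinase circRNAs were called when either exosome library was left out, and the ranges for kinase circRNAs and for all are given with the alternatives below. SLK, called higher, was not listed in cells and had 1 read in each exosome library, through which it passed the filter. The CSNK1G3 circRNA (123545417 to 123557564) had 14 and 4 reads in exosomes and 61 and 38 in cells (1.27 ± 1.23 RPTM in exosomes, 5.72 ± 1.12 RPTM in cells), with 0.10 ± 0.41 (edgeR adjusted p = 0.8642). VRK1 had 10 and 3 reads in exosomes and 60 and 50 in cells, with -0.53 ± 0.47 (adjusted p = 0.3424). BMPR2 had 6 and 3 reads in exosomes and 18 and 15 in cells (adjusted p = 0.3181). The first exosome library held more of these 3 circRNAs than the second. The whole exosome table rests on 2304 and 2301 reads, and for a kinase circRNA missing from it, absence, a lower level and low depth cannot be told apart. TNIK and NEK1 circRNAs were listed in exosomes and not in cells, with at most 2 reads in a library.

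The kinases outside this set, in a list of 122 genes, had 179 circRNAs from 63 genes, of which 16 were tested. In the nucleus against the cytoplasm 1 was higher and 6 were lower, beside 14.9% and 33.3% of all tested circRNAs. In the ribosome fraction against the cytosol 3 were higher and 6 lower, beside 26.6% and 26.1% of all. In exosomes against cells none was higher and 5 were lower, beside 4% and 42% of all. HIPK3 (chromosome 11, 33286413 to 33287511), a known and abundant circRNA, had -0.84 ± 0.26 in the ribosome fraction against the cytosol (adjusted p = 0.006457), a call that was not stable. ACVR2A (chromosome 2, 147896301 to 147899898) had 1.12 ± 0.35 in the same comparison (adjusted p = 0.008416), a stable call.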

How the data were processed

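Per the labels' protocols, total RNA was depleted of ribosomal RNA, except in exosomes, and made into strand-specific libraries. The deposited tables give whole-number counts of junction reads per library from the callers headed Ciri and CIRC, and the authors' RPTM, reads per 10000000 library reads, per the file headers. The build is hg38, per the submitters' processing notes; the aligner is not given in the sources used here. Library totals were derived by regressing RPTM on the 2 counts, which left residuals near 0. Reads per circRNA are averaged over callers that entered it and rounded. A caller has an entry only where both libraries have at least 1 read.

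Circular RNAs entered by both callers in the same table (4679) were fitted with edgeR 4.0.16 (quasi-likelihood, TMM, filterByExpr with a minimum count of 10, 12 libraries, 1 coefficient per fraction), and 950 passed. Standard errors are the absolute log2 fold change over the root of F. DESeq2 1.42.0, limma 3.58.1, R 4.3.3 and Python 3.11.15 were used. The fit was tested on simulated data. Hosts were assigned by RefSeq gene spans of GRCh38.p14, coding genes first, without strand or exons. All tested kinase circRNAs, the 5 highest per fraction and the top circRNA per gene could be named. The members and lists were chosen with earlier results of these data known. Counting intervals are not given, and standard deviations rest on 2 libraries. No genome was used, so other junction sequences are not shown.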

Additional observations from a re-analysis of the deposited data

How the results depend on the processing

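For single kinase circRNAs that were called, no direction turned under any alternative. In many of these calls 1 fraction did not list the circRNA and was entered as 0, so their direction could hardly turn. Alternatives in which a called circRNA was not tested are left out of the counts that follow. For the nucleus against the cytoplasm 184 alternative values kept their side of the threshold and 34 did not, for the ribosome fraction against the cytosol 165 and 16, and for exosomes against cells 96 and 56. With RLE factors the exosome calls were 4 kinase circRNAs and 234 of all; with total circRNA reads as the scale they were 3 and 160. On the scale of implied library totals the calls were 26 kinase circRNAs (795 of all) for the nucleus and 24 (852 of all) for exosomes. For the ribosome fraction they were 17, which without a count over all circRNAs beside it says nothing particular of kinase circRNAs. With unlisted circRNAs at 1 read they were 4 (161 of all) for the nucleus and 0 (26 of all) for exosomes. Without a filter they were 25 (829 of all) for the nucleus and 40 (1832 of all) for the ribosome fraction. With at least 5 reads in 2 libraries they were 24 (805 of all) and 28 (1365 of all) for these comparisons. In a fit of only the circRNAs listed in both tables, with filter, scale and adjustment redone, they were 2 (126 of 490 tested) for the nucleus, 0 (27 of 295) for exosomes, and 321 of 737 for the ribosome fraction. With single-caller entries included the nucleus had 790 of all. With only the 4 libraries of the comparison they were 8 (225 of all) for the nucleus and 2 (88 of all) for exosomes. With DESeq2 they were 4 (106 of all), 6 (262 of all) and 1 (63 of all) for the nucleus, the ribosome fraction and exosomes. The cause of these shifts was not tested. Leaving out 1 library gave 5 to 16 kinase calls (154 to 473 of all) for the nucleus, 13 to 16 (488 to 654) for the ribosome fraction and 2 to 12 (51 to 420) for exosomes; the nuclear call count was 5 without the first nuclear library, and exosomes had 2 without either of their libraries. The replicate numbers are not said to mark a shared batch and their deviations correlated by -0.062 to 0.083, so the samples share only a number; with the replicate block the counts were 14, 12 and 10 kinase circRNAs (467, 500 and 447 of all). Taking circRNAs whose callers agreed only across tables was an alternative chosen after seeing the data. The exosome depth, 2304 and 2301 circRNA reads, limits what exosomes can show.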

Other observations

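Protein phosphatases, which remove the phosphate that kinases add, gave 138 circRNAs from 36 of 47 listed genes, of which 14 were tested. In the nucleus against the cytoplasm none was called higher and 6 were called lower, beside 14.9% and 33.3% of all tested circRNAs. In the ribosome fraction against the cytosol 4 were higher and 2 lower, beside 26.6% and 26.1% of all, and the median log2 fold change was 0.86, beside 0 over all tested circRNAs. In exosomes against cells none was higher and 8 were lower, beside 4% and 42% of all. None of the nuclear or exosomal calls was stable, nor was any lower exosomal call among all tested circRNAs. In the ribosome fraction 2 higher and 2 lower calls were stable. The PTPRA circRNA from 2964272 to 2965202 on chromosome 20, of a receptor tyrosine phosphatase, was lower in the ribosome fraction than in the cytosol, with -1.67 ± 0.39 (edgeR adjusted p = 0.000728). Another PTPRA circRNA (2986765 to 2988474) had 1.24 ± 0.62 and did not pass (edgeR adjusted p = 0.08937). CDC14B (chromosome 9, 96522506 to 96565483), with the most reads of those tested, had 0.36 ± 0.37 and did not pass (edgeR adjusted p = 0.4495). PPP4R1 (chromosome 18, 9583117 to 9595153), of a regulatory subunit of phosphatase 4, had 1.27 ± 0.42 (adjusted p = 0.01098).

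The most read kinase circRNAs that only 1 caller entered were left out of the tests. ROCK2 (chromosome 2, 11286539 to 11288449) had 197 reads in 5 tables. VRK2 (chromosome 2, 58084089 to 58089723) had 150 reads and PRKD3 (chromosome 2, 37316237 to 37317179) had 148, each in 4 tables.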
